A study of Mus musculus with 2 samples.

Results

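The genes described here are the transcription factors of the amino acid response, Atf4, Atf3, Ddit3 (CHOP) and Cebpb, the pseudokinase Trib3, the enzymes Asns, Mthfd2 and Shmt1, and the stress-induced growth inhibitors Sesn2 and Ddit4. Members were taken as all probe sets that the array annotation maps to exactly 1 of these 10 genes, which gave 14 of the 12488 probe sets and 9 of the 10 genes, or 9 of 8251 genes named on the array. The expression of Sesn2 was not analysed here. The genes were picked as a pathway, chosen with knowledge of the log2 ratios between these same 2 arrays, Mthfd2 being among the highest, so their ratios are a description and support nothing beyond it. They were not selected by a threshold.

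The samples were MEF 3T3 cells, an immortalised mouse embryo fibroblast line, in serum-free DMEM. In the suspension group cells were kept unattached, and those of the fibronectin group were allowed 30 min on a 10 µg/ml coat of fibronectin, a matrix glycoprotein that cells hold through integrins. By the labels each group had 1 Affymetrix MG_U74Av2 array of total RNA. The series text speaks of 2 replicates beside the 2 samples, and whether an array stands for pooled cultures is not known. Hence no difference below has a replicate check, an SD or a p-value. The labels state that the comparison was made to find genes induced by fibronectin, with the MAPK pathway in view, and how long the cells were kept unattached is not stated in the sources.

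In the amino acid response, uncharged tRNA activates the kinase GCN2 (Eif2ak4), which phosphorylates the initiation factor eIF2. General translation then falls while the Atf4 mRNA is translated more, so ATF4 protein can change without its mRNA. Endoplasmic reticulum stress reaches the same step through the kinase PERK (Eif2ak3). ATF4, often paired with a C/EBP protein, binds composite C/EBP-ATF response elements (CARE) in genes for amino acid supply, serine and folate metabolism and feedback, among them Asns, Trib3, Atf3 and Ddit3. Mthfd2 is a mitochondrial enzyme that passes folate-bound one-carbon units towards formate for purine synthesis, and it is low in most resting adult tissues.

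As ATF4 acts through the CARE, the promoter windows of the members were searched for its core, TGATGNAA, on both strands. The windows were RefSeq sequences of the build GRCm38.p6 that run from 250 bases before to 50 bases after an annotated start site. All 10 members, Sesn2 included, matched 1 window each. A match was found in 3 of the 10 windows, against 3.97% of 32851 windows of the same length. The 3 genes, Asns, Atf3 and Trib3, are among the CARE genes named above, so this share describes the list and supports nothing beyond it. The matches are shown with the bases around them, along the strand of the gene, with the matched letters in capitals. The element of Asns lies at chr6:7693214-7693243 (minus strand), with the match 23 to 16 bases before the start site. That of Atf3 lies at chr1:191183425-191183454 (minus strand), 110 to 103 bases before it, and that of Trib3 at chr2:152344028-152344057 (minus strand), 15 to 22 bases after it.
Asns: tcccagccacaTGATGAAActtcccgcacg
Atf3: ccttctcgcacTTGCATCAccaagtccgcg
Trib3: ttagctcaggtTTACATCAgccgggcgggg
The Asns match reads in the direction of the gene, and those of Atf3 and Trib3 read on the opposite strand, so that their capitals show the reverse complement. The other windows, that of Mthfd2 included, do not hold these letters, which says nothing about binding elsewhere. The cyclic AMP response element TGACGTCA was found in 0 of the 10 windows, against 1.79% of all windows.

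Signals were set against a common floor of 490, below which values have no order, and against 34 negative control probe sets on each array. These were Affymetrix control sets whose names end in st, and those named Dap, Lys, Phe, Thr, Trpn and YEL. Whether any such transcript was added to the samples was not checked. The median of these controls was 459 in suspension and 292 on fibronectin. The 95th percentile was 1403 in suspension and 1873 on fibronectin, and the highest were 1452 and 2527, so these limits rest on a few sets. A signal that does not exceed the highest control is said to lie among the controls. Where only 1 of both arrays reached the floor, the fold is a bound and is written with "at least". The spread of a single log2 ratio between probe sets of 1 gene had an SD of 0.69 over 1146 genes, and of 0.40 over the 197 genes with both probe sets above the 95th percentile of the controls in both arrays. That spread covers probe differences within these 2 arrays and not differences between cultures.

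Of the 9 genes, 3 passed 2-fold upwards on fibronectin and 0 downwards, against 5.79% and 9.27% of the 6385 measured genes. A ratio above 0 was found in 7 of the 9, against 44.9% of those genes. The higher ones were Mthfd2, Trib3 and Ddit3. The factors Atf4, Cebpb and Atf3 and the enzyme Asns were 1.32-fold to 1.38-fold higher, Ddit4 had nearly equal signals, and Shmt1 was 1.75-fold lower, where 22.6% of genes passed 1.5-fold downwards. All 9 reached the floor in at least 1 array, Mthfd2 and Trib3 on fibronectin alone. The median log2 ratio of the 9 genes was 0.47, against -0.09 for all measured genes.

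**Figure D1:**
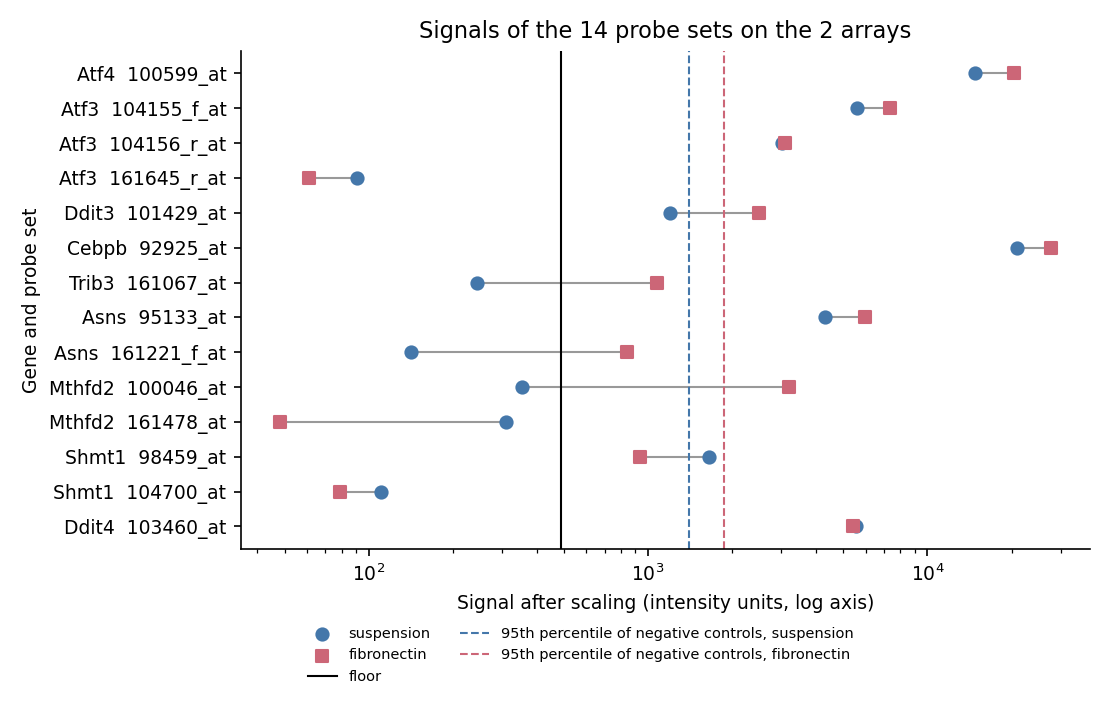
Signals of the 14 probe sets after scaling (log axis, intensity units), with a circle for suspension and a square for fibronectin, 1 array each and no error bars. The solid line is the floor of 490 and the dashed lines are the 95th percentiles of the negative controls, 1403 in suspension and 1873 on fibronectin. Both signals of Atf4, Cebpb, Ddit4, the brighter Asns set and 2 Atf3 sets lie right of the dashed lines, and those of Mthfd2 and Ddit3 cross them.

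Atf4, the factor that gives the response its name, gave 14782 intensity units in suspension and 20413 on fibronectin with its only probe set, 100599_at. Both signals were above every negative control. The log2 ratio was 0.47, or 1.38-fold higher on fibronectin, which is close to the SD of 0.40 between probe sets of bright genes. Of all measured genes, 20.7% had a ratio as high or higher. Atf4 mRNA was thus already bright in suspended cells, and the arrays do not measure its translation.

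Cebpb encodes C/EBP beta, a bZIP factor that pairs with ATF4 on composite elements. It had signals of 20935 in suspension and 27707 on fibronectin, a log2 ratio of 0.40, with 23.0% of genes as high or higher. Both signals exceeded all negative controls by far, and the difference equalled the SD between probe sets of bright genes.

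Atf3 encodes a bZIP repressor that ATF4 induces and that is also an immediate early gene of growth factor signalling. Its brightest probe set, 104155_f_at, had 5583 in suspension and 7345 on fibronectin, a log2 ratio of 0.40. The second, 104156_r_at, had 3008 and 3097, a log2 ratio of 0.04. The suffix f marks probes shared by a family of sequences and r a set chosen with relaxed rules, so both may read related transcripts. The third set, 161645_r_at, had 91 and 61, below the floor in both arrays, and gives no ratio. The 2 bright sets of Atf3 thus both lay above all negative controls but gave ratios of 0.40 and 0.04.

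Ddit3 encodes CHOP, a C/EBP family member that forms dimers with other bZIP factors and promotes cell death in long-lasting stress. Its only probe set, 101429_at, gave 1196 in suspension and 2490 on fibronectin, a log2 ratio of 1.06. The suspension signal lay among the negative controls, 3 of which were brighter, and the fibronectin signal was exceeded by 1 control. The fold of 2.08 rests on that dim suspension signal, and 4.96% of genes had a ratio as high or higher. With the floor raised to 1638, the mean of both arrays' 95th percentiles of the controls, the log2 ratio of Ddit3 was 0.60.

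Trib3, a pseudokinase that CHOP and ATF4 induce and that binds AKT and ATF4 in feedback, had 244 in suspension and 1080 on fibronectin (161067_at). With the suspension signal under the floor, its fold on fibronectin was at least 2.20, and 3.96% of genes had a ratio as high or higher. In suspension 24 of the negative controls were brighter, and on fibronectin 3 were. Against a floor of 1052, taken from the 60th percentile, the log2 ratio was 0.04, and with the floor at 1638 Trib3 was not measured.

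Mthfd2 had the largest ratio of the 9 genes. Its probe set 100046_at had a signal of 353 in suspension, where 19 of the 34 negative controls were brighter, and 3192 on fibronectin, above every control. The fold on fibronectin was at least 6.52, and 3 of the 6385 measured genes ranked above it. Against the floor of 1638 set by the controls, the log2 ratio was 0.96, just under 2-fold. The other probe set, 161478_at, had 309 and 48, below the floor in both arrays, so it did not detect Mthfd2 in the array where the first set was bright. The higher Mthfd2 signal on fibronectin is therefore shown by 1 probe set on 1 array.

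Asns, the asparagine synthetase and a textbook ATF4 target, had 4307 in suspension and 5965 on fibronectin in the set 95133_at, a log2 ratio of 0.47. Its set 161221_f_at had 142 and 841, at least 1.72-fold higher, where both signals lay among the negative controls. Both Asns sets were thus higher on fibronectin, the bright one by 1.38-fold. Of all genes, 20.5% had a ratio as high as that of the bright set.

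Shmt1, the cytosolic serine hydroxymethyltransferase that makes one-carbon units from serine, went in the other direction. It had 1648 in suspension and 939 on fibronectin (98459_at), a log2 ratio of -0.81, or 1.75-fold lower, with 13.8% of genes as low or lower. The suspension signal was above every negative control and the fibronectin signal below 4 of them. With the floor at 1638 the log2 ratio was -0.01. The set 104700_at had 111 and 79 and gives no ratio. The cytosolic enzyme Shmt1 and the mitochondrial enzyme Mthfd2 thus had ratios of opposite sign, each with 1 signal among the negative controls.

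Ddit4 (REDD1), an inhibitor of mTORC1 that ATF4, hypoxia and glucocorticoids induce, had 5553 in suspension and 5406 on fibronectin. Its log2 ratio was -0.04, and both signals exceeded all negative controls. It was the member with the most similar signals on both arrays.

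**Figure D2:**
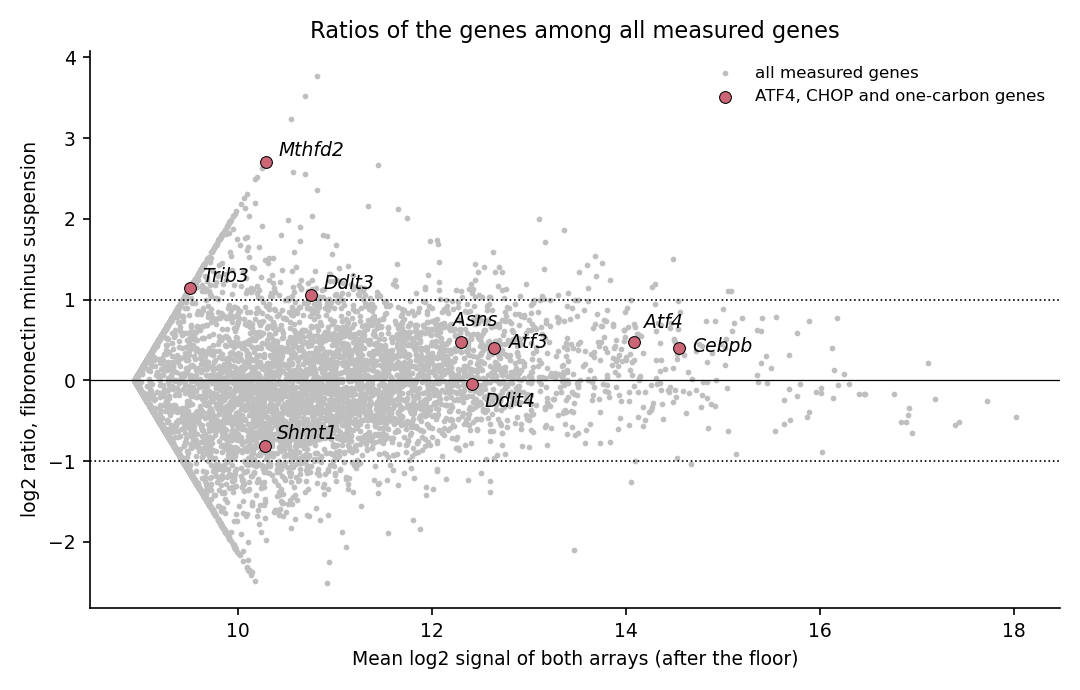
Log2 ratio (fibronectin minus suspension) of each of the 6385 measured genes (grey) against its mean log2 signal after the floor, with the 9 genes in red and dotted lines at 2-fold. Mthfd2 and Trib3 lie on the edge formed by the floor, Ddit3 just above 2-fold, and Atf4, Cebpb, Atf3, Asns and Ddit4 between -0.04 and 0.47.

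The members were also grouped by brightness. The 5 with both signals above the 95th percentile of the negative controls, Atf4, Atf3, Cebpb, Asns and Ddit4, had log2 ratios from -0.04 to 0.47, with a median of 0.40 and 4 of 5 above 0. Of the 2263 genes that bright, 57.8% had a ratio above 0 and the median was 0.09, while 3.80% passed 2-fold upwards and 1.02% downwards. None of the 5 bright members passed 1.5-fold in either direction, against 16.9% of bright genes higher and 7.29% lower. All 3 members past 2-fold, Mthfd2, Trib3 and Ddit3, had a suspension signal among the negative controls. This is not particular to them. Of all 370 measured genes at least 2-fold higher, 86 were above the 95th percentile of the controls in both arrays. The bright group requires a bright suspension signal, so a gene that rises from a dim one cannot be in it.

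The direction of the bright members depended on how the arrays were scaled. With the arrays scaled to 9 hybridisation spikes, the control transcripts added before hybridisation, the median log2 ratio of all genes was -0.51, and Atf4, Atf3, Cebpb and Ddit4 had -0.01, -0.08, -0.07 and -0.51. Asns had 0.00, Ddit3 0.58, and Trib3 and Mthfd2 0.87 and 2.43, both as bounds. Scaled to the array medians, all genes had a median of 0.11, Atf4 0.67 and Ddit4 0.17. Ratios were also set against the median of all genes, under the reported scaling, the array medians, quantile normalization, loess and the spikes. Relative to that median, Atf4 lay 0.27 to 0.57 higher, Asns 0.38 to 0.57, Cebpb 0.32 to 0.51 and Atf3 0.28 to 0.50. Ddit3 lay 1.10 to 1.20 above that median, Mthfd2 2.70 to 2.95, Shmt1 -0.77 to -0.59, and Ddit4 -0.15 to 0.06.

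**Figure D3:**
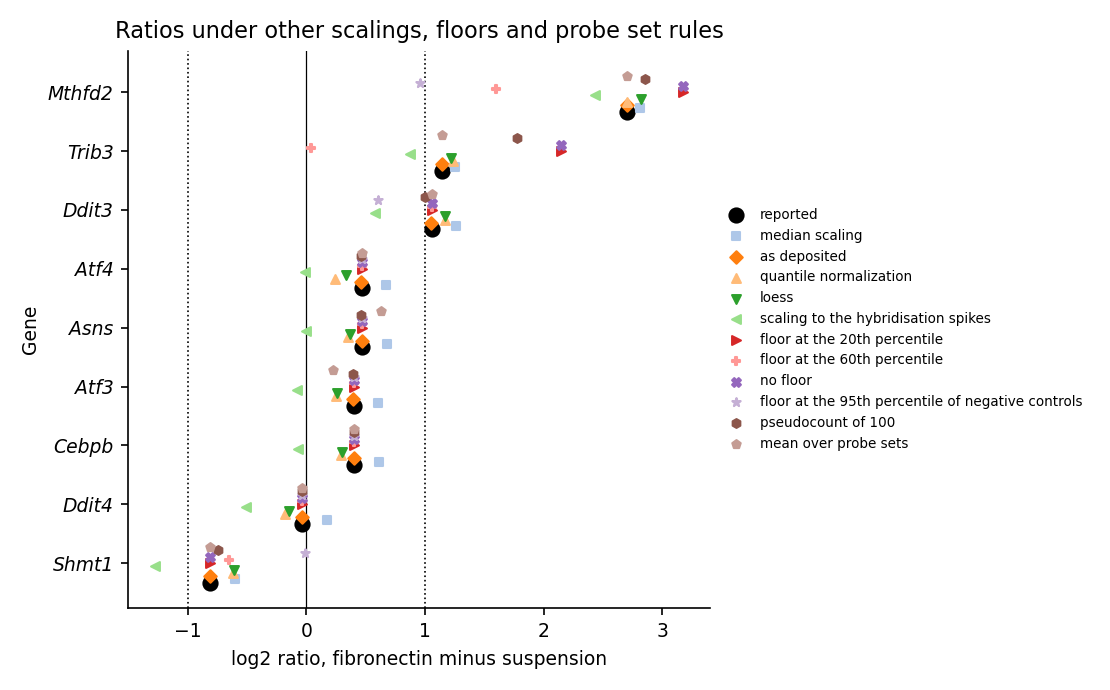
Log2 ratio of each gene as reported (black circle) and under 11 other scalings, floors and probe set rules (coloured symbols), with dotted lines at 2-fold. Mthfd2 ranges from 0.96 to 3.18, Trib3 from 0.04 to 2.15 and Ddit3 from 0.58 to 1.26, and Atf4, Asns, Atf3 and Cebpb reach 0 or just below it with scaling to the spikes.

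The deposited signals had trimmed means of 1489 and 1486. As the MAS5 scaling target is not stated, this likeness may come from the processing. The arrays differed in other measures. The ratio of 3′ to 5′ signal, a sign of RNA and target quality, was 1.47 in suspension and 0.841 on fibronectin for the Gapdh controls, and 1.79 and 1.19 for those of beta-actin. The arrays also differed in chip lot, operator, fluidics module and scan day, 4 of 32 settings, which cannot be told apart from the group. The part of these differences in the ratios above was not tested. Of 15 fibroblast marker genes, 12 in suspension and 11 on fibronectin were above the 95th percentile of the controls, with summed signals of 206068 and 311415. Col1a1, Col1a2, S100a4 and Sparc were bright in both, while Thy1, at 237 and 63, was not above the floor. Vim, at 1421 and 686, Fap, at 789 and 333, and Lum, at 789 and 599, lay among the negative controls on both arrays. All 3 were lower on fibronectin, Vim with a log2 ratio of -1.05. Of 8 macrophage and blood cell markers 2 and 1 were above that percentile, of 8 epithelial markers 2 and 0, and of 7 endothelial markers 1 and 1, with summed signals lower on fibronectin in each of these 3 lists. The brightest of them were Cd14, at 5342 and 3857, and Eng, at 5167 and 2428, and Cdh1 (2154) and Csf1r (1844) exceeded all negative controls in suspension. The leukocyte marker Ptprc, at 372 and 48, and the endothelial marker Cdh5, at 157 and 70, did not. The other probe set of Csf1r, at 481 and 691, lay among the negative controls on both arrays. The 2 Csf1r sets had log2 ratios of -0.35 and, as a bound, 0.50, so neither its detection nor its direction was settled.

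Genes around eIF2 phosphorylation, upstream of ATF4, had log2 ratios from -0.56 to 0.85. The list holds the kinases and phosphatases, and also subunit genes of eIF2 and eIF2B and regulators such as Dnajc3, Impact and Nck1. Of 20 genes listed 17 were measured, and 0 passed 2-fold in either direction, against 5.79% of all measured genes upwards and 9.27% downwards. A ratio above 0 was found in 8 and below 0 in 9, and the median was -0.07, or 0.18 with median scaling. Ppp1r15b, the constitutive partner of the eIF2 phosphatase, had 5177 in suspension and 9310 on fibronectin, or 1.80-fold more. Its stress-induced relative Ppp1r15a (GADD34), itself an ATF4 and CHOP target, was 1.47-fold lower, at 8163 and 5552. The catalytic subunit gene Ppp1cb was 1.49-fold higher and the PERK gene Eif2ak3 1.45-fold lower, the latter with 1199 and 826, both among the negative controls. The GCN2 gene Eif2ak4 had 185 and 546.

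Among bZIP relatives of ATF4 and C/EBP beta, 13 of 24 listed genes were measured, with a median of -0.10, or 0.10 with median scaling. Of the 13, 0 passed 2-fold upwards and 2 downwards, against 5.79% and 9.27% of all measured genes. Cebpd, a C/EBP gene of the acute phase and of fat cell differentiation, was 2.21-fold lower, at 8648 in suspension and 3906 on fibronectin, opposite in sign to Cebpb. Creb1 was at least 2.61-fold lower in its brightest probe set, with signals of 1280 and 206 among the negative controls. Another set, at 491 and 469, lay at the floor, so its log2 ratio of 0.00 shows no direction. The third, at 86 and 122, lay below the floor. Atf5, an ATF4 relative with similar translational control, was 1.56-fold lower, at 1999 and 1278, the latter among the negative controls. Crem was at least 1.68-fold higher, at 467 and 821, both among the negative controls. Its other set, at 92 and 73, gave no ratio.

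Amino acid transporters had the highest median of the 6 lists, 0.49, with 10 of 19 listed genes measured. It was 0.25 without a floor and 0.02 with scaling to the spikes. Of the 10, 2 passed 2-fold upwards and 1 downwards, against 5.79% and 9.27% of all measured genes, and 5 passed 1.5-fold upwards, against 15.9%. Slc1a4, which carries alanine, serine and cysteine, was 2.49-fold higher, at 3109 against a suspension signal of 1246 that lay among the negative controls. Slc7a6 was 2.06-fold higher, at 590 and 1213, and at least 1.45-fold higher in its other set, all 4 signals lying among the negative controls. The amino acid transporter gene Slc38a4 was 1.67-fold higher, at 2181 and 3648. Slc7a11, the cystine transporter and a frequent ATF4 target, was at least 2.44-fold lower, at 1195 and 137, both within that range.

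Enzymes of serine, glycine and one-carbon metabolism did not share the ratio of Mthfd2. Of 38 listed genes 16 were measured, 5 with a ratio above 0 and 11 below. The median was -0.20, or 0.00 with median scaling. Past 2-fold were 0 upwards and 1 downwards, against 5.79% and 9.27% of all measured genes. That 1 gene was the folate carrier Slc19a1, at 1913 and 718, a log2 ratio of -1.41, named after its value was seen. Its other probe set, at 462 and 1545, was at least 3.15-fold higher on fibronectin, so the direction of Slc19a1 was not settled. Ggh, which trims folate polyglutamates, was at least 1.76-fold higher, at 213 and 860, and Aldh18a1 of proline synthesis 1.61-fold higher, at 577 and 929. Gnmt was at least 1.81-fold lower, at 889 and 167, and the purine synthesis gene Gart 1.62-fold lower, at 1940 and 1197. Of these 8 signals, 7 lay among the negative controls, the exception being Gart in suspension. The mitochondrial counterpart of Shmt1, Shmt2, and the serine synthesis genes Phgdh, Psat1 and Psph were looked up after the values were seen. They had log2 ratios of -0.06, -0.52, 0.58 and -0.49. Shmt2, with 1157 and 1113, lay among the negative controls on both arrays.

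Other targets of ATF4 and CHOP were split, with 22 of 31 listed genes measured, 11 above and 11 below a ratio of 0, and a median of 0.03. The sign of that median was not settled, at -0.14 without a floor and 0.23 with median scaling. Of the 22 genes, 5 passed 2-fold upwards and 0 downwards, against 5.79% and 9.27% of all measured genes. The growth factor gene Vegfa was at least 5.62-fold higher, at 388 among the negative controls in suspension and 2753 above all of them on fibronectin. The chaperone cofactor gene Dnajb9 was 3.39-fold higher, at 586 and 1988, both signals below the highest negative control. The signal of 1988 was above the 95th percentile of the controls, 1873. The other Dnajb9 set, at 315 and 1613, was at least 3.29-fold higher. Hmox1, the haem oxygenase, had 13709 in suspension and 38703 on fibronectin, and Hspa5 (BiP), the main chaperone of the endoplasmic reticulum, 7586 and 20433. Ndrg1, named as the last of the 5 after its value was seen, had 5386 and 11081, and 6089 and 9467 in its other set. Dnajb9, Hspa5 and Hmox1 are also induced by factors other than ATF4, such as XBP1, ATF6 and NRF2.

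The mTORC1 regulators around Sesn2 and Ddit4 had 16 of 30 listed genes measured, with a median of -0.18, or 0.03 with median scaling. Of the 16, 1 passed 2-fold upwards and 0 downwards, against 5.79% and 9.27% of all measured genes. Lamtor3, a subunit of the lysosomal Ragulator complex, was 2.44-fold higher, at 778 and 1896, both among the negative controls, and the GTPase gene Rraga 1.87-fold higher, at 1807 and 3375. The AMPK subunit gene Prkag1 and the mTORC1 inhibitor Tsc1 were 1.87-fold and 1.76-fold lower, with fibronectin signals of 1136 and 1159 among the negative controls. Sesn1, a relative of Sesn2 likewise named after its value was seen, had 2741 and 4157, a log2 ratio of 0.60.

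**Figure D4:**
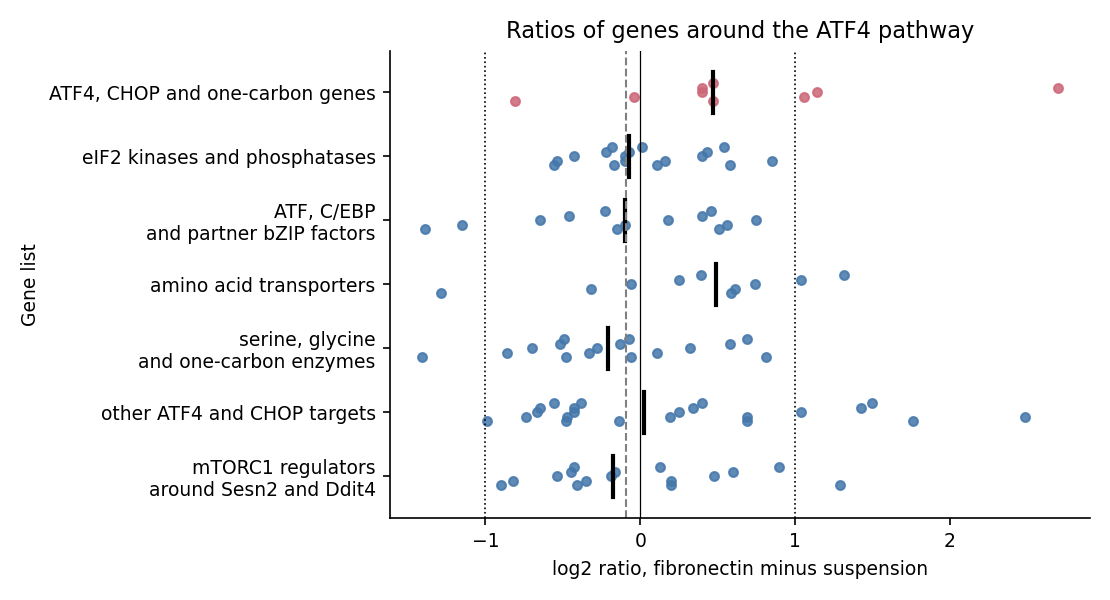
Log2 ratios (fibronectin minus suspension) of the measured genes in 7 lists, 1 point per gene, with a black bar at each median, a dashed line at the median of all measured genes, -0.09, and dotted lines at 2-fold. The medians of the red list (0.47) and of the amino acid transporters (0.49) lie furthest right, and those of the other 5 lists lie between -0.20 and 0.03.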

How the data were processed

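The deposited values are intensities, linear MAS5 signals of single probe sets, per the submitters' processing notes. No source states the MAS5 version or scaling target, and detection calls were not used. Each array was brought to the same 2% trimmed mean over 12422 probe sets that are not controls (factors 0.999 and 1.00), floored at 490 (mean of both arrays' 40th percentiles), and log2 was taken. Probe sets were named by the platform annotation where it gives 1 gene, 10833 in all. Of several probe sets of a gene, the one of highest mean log2 signal stands for it, and all are given for the members. A gene was measured if it reached the floor in at least 1 array. With 1 array per group nothing was tested, and genes were counted by fold. The steps were checked on simulated data (Python 3.11.15, numpy 2.4.6, statsmodels 0.14.6 for loess). The simulated folds were put on probe sets well above the floor, so the check does not cover folds that rest on dim signals. The members, the 6 pathway lists and the markers were chosen with earlier results of these data known. From each pathway list up to 4 measured genes of largest absolute ratio were named, unless another measured probe set had the opposite sign beyond 0.3. The number of arrays limits the precision of every value. Alternatives were 5 scalings, 4 floors, a pseudocount of 100, the mean over probe sets, and thresholds of 1.5-fold and 3-fold. No genome build is named for the array values, and the only positions given are those of the RefSeq promoter windows.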

Additional observations from a re-analysis of the deposited data

How the results depend on the processing

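No paired analysis was possible because each group has 1 array and nothing was tested. Of the 9 member ratios, none changed sign once past 2-fold, and Mthfd2 and Ddit3 stayed above 0 under all 11 scalings, floors and probe set rules, Mthfd2 at least 2-fold higher under 10 and Ddit3 under 8. Members at least 2-fold higher numbered 1 instead of 3 with scaling to the spikes, against 2.11% of all genes. They numbered 0 with the floor at the negative controls, against 2.89%, and 1 at 3-fold, against 1.38%. With the floor at the 60th percentile and with the pseudocount they numbered 2, against 3.41% and 9.68%. Members at least 2-fold lower numbered 1 instead of 0 with the spikes, which was Shmt1 at -1.28, against 22.1% of all genes. At 1.5-fold 1 member was lower, against 22.6%. With the spikes the list medians were -0.01 for the members, -0.51 for eIF2 genes, -0.58 for bZIP factors, 0.02 for transporters, -0.68 for one-carbon enzymes, -0.44 for other targets and -0.65 for mTORC1 regulators. Median scaling gave 0.18 for eIF2 genes, 0.10 for bZIP factors, 0.00 for one-carbon enzymes, 0.23 for other targets and 0.03 for mTORC1 regulators. Without a floor transporters had 0.25, and the other targets had -0.14 then and with the 20th percentile, 0.34 with the 60th and 0.40 with the controls' floor. The mean over probe sets gave 0.02 for mTORC1 regulators. Over all genes, 370 passed 2-fold upwards and 592 downwards. The numbers were 596 and 405 with median scaling, 134 and 1409 with the spikes, 817 and 1179 at the 20th percentile, 155 and 158 at the 60th, 931 and 1542 with no floor, 96 and 47 at the controls' floor, 618 and 914 with the pseudocount, 1014 and 1440 at 1.5-fold, and 88 and 120 at 3-fold. Higher genes were 38.5% of all genes past 2-fold, 59.5% with median scaling, 51.0% with quantile normalization, 51.3% with loess and 8.68% with the spikes. The signal over background limits Trib3, Mthfd2, Ddit3 and Shmt1, each with a signal among the negative controls.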
